A study of Mus musculus with 3 samples.

Results

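Fc receptors bind the constant part of antibodies, and their RNA was followed here in single cells sorted from mouse liver during early ethanol feeding. The genes were chosen by symbol: Fcgr1, Fcgr3 and Fcgr4, Fcer1g, Fcgr2b, and Fcgrt. All 6 were found in the deposited count matrices, out of 28692 genes. They were described by diet in Kupffer-like, endothelial-like and lymphoid cells.

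Fcgr1, Fcgr3 and Fcgr4 encode activating receptors for IgG. In mice they reach the cell surface with the common gamma chain, the product of Fcer1g, whose ITAM motif recruits the kinase Syk when antibody complexes cluster the receptors. Fcgr2b encodes the inhibitory receptor for IgG, which carries an ITIM motif, recruits the phosphatase SHIP1 and dampens the activating receptors when it is bound together with them. In liver it is known above all from sinusoidal endothelium, where it takes up small immune complexes. Fcgrt encodes the heavy chain of FcRn, which pairs with beta-2 microglobulin inside endosomes and returns IgG and albumin to the blood instead of letting them be degraded. Kupffer cells, the resident macrophages of the liver sinusoids, clear antibody-coated particles from the blood.

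Male mice aged 8 weeks ate chow (day 0) or a Lieber-DeCarli liquid diet in which ethanol made up 5%, for 3 days or for 10 days, with 1 mouse and 1 library in each group. Livers were perfused with collagenase, and live non-parenchymal cells with high F4/80 and intermediate CD11b were sorted before 3′ single-cell sequencing, in which each captured RNA molecule is counted by a unique molecular identifier (UMI). No strain or genetic change was given in the sources used here. No control mouse had an ethanol-free liquid diet, so that ethanol, the form of the diet, the mouse and the library cannot be told apart, and no test between diets was possible.

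Of the 6 genes, 4 lie within 276 kb of chromosome 1 (GRCm38), in the order Fcgr2b, Fcgr4, Fcgr3, Fcer1g. Fcgr2b spans chr1:170958617-170976547 on the minus strand, Fcgr4 chr1:171018920-171029761 on the plus strand, Fcgr3 chr1:171051174-171064935 on the minus strand and Fcer1g chr1:171229572-171234365 on the minus strand. Fcgr1 lies apart at chr3:96282909-96293969 and Fcgrt at chr7:45092990-45103851, both on the minus strand. Fcgr2b and Fcgr3 are close relatives in sequence. In the last 500 bases of their annotated transcripts, which a 3′ library mostly reads, 76 of 2484 runs of 31 bases in Fcgr2b (3.06%) also occur in Fcgr3, and Fcgr1 and Fcer1g share 0 such runs with other genes. Fcgr2b also overlaps Gm38204, a predicted gene on the opposite strand, and how the counting treated strand was not given in the sources used here.

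The promoters of the 3 activating receptors and of Fcgr2b are shown because the members differed in the cells that held their RNA. All 6 genes matched a RefSeq promoter window (GRCm38.p6) of 250 bases before to 50 bases after the start. Capitals mark the core of the PU-box, the letters GAGGAA or, on the other strand, TTCCTC, which the macrophage factor PU.1 is known to bind within a longer site. The windows are chr3:96293920-96294219 (minus strand) for Fcgr1, chr1:171059354-171059653 (minus strand) for Fcgr3, chr1:171018676-171018975 (plus strand) for Fcgr4 and chr1:170976022-170976321 (minus strand) for Fcgr2b, each printed 5′ to 3′ on the strand of its gene.
Fcgr1: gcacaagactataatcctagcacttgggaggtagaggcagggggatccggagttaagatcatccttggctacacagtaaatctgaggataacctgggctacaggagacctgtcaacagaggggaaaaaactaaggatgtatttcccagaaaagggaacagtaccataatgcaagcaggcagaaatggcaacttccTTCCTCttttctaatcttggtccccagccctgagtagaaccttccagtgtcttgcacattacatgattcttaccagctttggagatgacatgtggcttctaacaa
Fcgr3: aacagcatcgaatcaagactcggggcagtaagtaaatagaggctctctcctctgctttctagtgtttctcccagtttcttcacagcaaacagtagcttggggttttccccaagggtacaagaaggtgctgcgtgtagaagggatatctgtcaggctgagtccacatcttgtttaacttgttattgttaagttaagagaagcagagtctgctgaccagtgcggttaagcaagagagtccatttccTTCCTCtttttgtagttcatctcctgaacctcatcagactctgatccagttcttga
Fcgr4: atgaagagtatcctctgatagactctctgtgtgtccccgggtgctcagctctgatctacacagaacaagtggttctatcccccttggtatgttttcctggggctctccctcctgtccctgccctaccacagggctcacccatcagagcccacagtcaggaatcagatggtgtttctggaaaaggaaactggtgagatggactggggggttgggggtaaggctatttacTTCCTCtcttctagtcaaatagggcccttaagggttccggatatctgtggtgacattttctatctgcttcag
Fcgr2b: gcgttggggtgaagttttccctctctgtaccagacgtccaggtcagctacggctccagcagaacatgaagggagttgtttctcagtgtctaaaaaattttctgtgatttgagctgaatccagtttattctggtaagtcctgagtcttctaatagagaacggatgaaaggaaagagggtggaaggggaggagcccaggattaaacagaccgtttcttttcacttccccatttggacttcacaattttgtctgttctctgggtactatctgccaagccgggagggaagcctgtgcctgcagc

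The PU-box core letters were present in the windows of Fcgr1, Fcgr3 and Fcgr4 and absent from those of Fcer1g, Fcgr2b and Fcgrt. They began at position -55 from the start in Fcgr1, -6 in the Fcgr3 window shown and -22 in Fcgr4. Fcgr3 has another start in RefSeq, from which they began at -15. Of all 32851 promoter windows, 28.3% hold them on either strand. The core of ETS factor sites, AGGAAG or CTTCCT, which overlaps the PU-box core in its letters, was found at 2 places each in Fcgr1 and Fcer1g, at 1 place each in Fcgr3 and Fcgr4, and in neither Fcgr2b nor Fcgrt, against 35.4% of all windows. The longest run that the Fcgr1 and Fcgr3 windows share is TTCCTTCCTCTTTT, 14 bases that include the PU-box core in both. These matches describe letters in the windows and say nothing of binding.

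Totals were 21650747 UMIs in the chow library, 21471782 in the 3-day and 16538895 in the 10-day ethanol library. Barcodes with at least 1000 UMIs, 300 genes and no more than 10% mitochondrial UMIs numbered 2767, 4061 and 3014, where the labels give an average yield of 3000 to 5000 cells. Between 13 and 20 of these barcodes were shared by any pair of libraries, against 11.3 to 16.6 expected for independent draws, and 0 by all 3. Kupffer-like cells made up 86.6%, 88.5% and 86.9% of them (2396, 3594 and 2620 cells), a share set by the sort. Their Kupffer markers Clec4f and Cd5l stood at 4107 to 4171 and 5382 to 5896 CPM, the UMIs of a gene scaled to a common total of the class, and the sort marker Adgre1, which encodes F4/80, at 809 to 892 CPM. The median depth of a Kupffer-like cell was 4581 UMIs in chow, 3037.5 in 3-day and 3041 in 10-day ethanol. The 7 Kupffer-like clusters took different shares of each library. Cluster 1 held 33.3%, 2.09% and 4.66% of the Kupffer-like cells, cluster 3 held 4.63%, 37.5% and 7.82%, and cluster 2 held 7.89%, 9.04% and 49.7%, so that a cluster mostly of 1 library may be that library.

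The 37, 92 and 65 endothelial-like cells carried Stab2, Clec4g and Kdr (Clec4g at 3519, 2392 and 2156 CPM), genes of the sinusoidal endothelium. Lymphoid cells fell into 101, 79 and 135 T-like cells, 13, 6 and 12 cells with B and plasma cell markers, and 16, 11 and 18 lymphocytes led by Gzma, Ncr1, Klrd1 and other genes of natural killer cells. The last are called NK-receptor lymphocytes and not NK cells, since 30 of these 45 cells held a UMI of a CD3 gene and their T cell markers summed to 4609 to 8907 CPM, against 7019 to 8680 CPM in T-like cells. A further 41, 21 and 15 cells were dendritic cell-like (DC-like). None of these types is the target of the sort.

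Free RNA from broken cells gives UMIs in cells that do not express a gene. Its level was estimated for each class and gene from 6 Kupffer-only genes and from barcodes with at most 100 UMIs. Since Kupffer-like cells express these genes, they were given the free RNA share of the T-like cells of their library (8.71%, 8.3% and 9.99%). Outside the Kupffer-like class, cells with over 1% of their UMIs from the Kupffer-only genes were left out. Intervals in brackets are exact 95% intervals for counting error only, and they say nothing of the spread between mice or libraries. Those of levels and ratios also leave out the spread between cells.

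**Figure D1:**
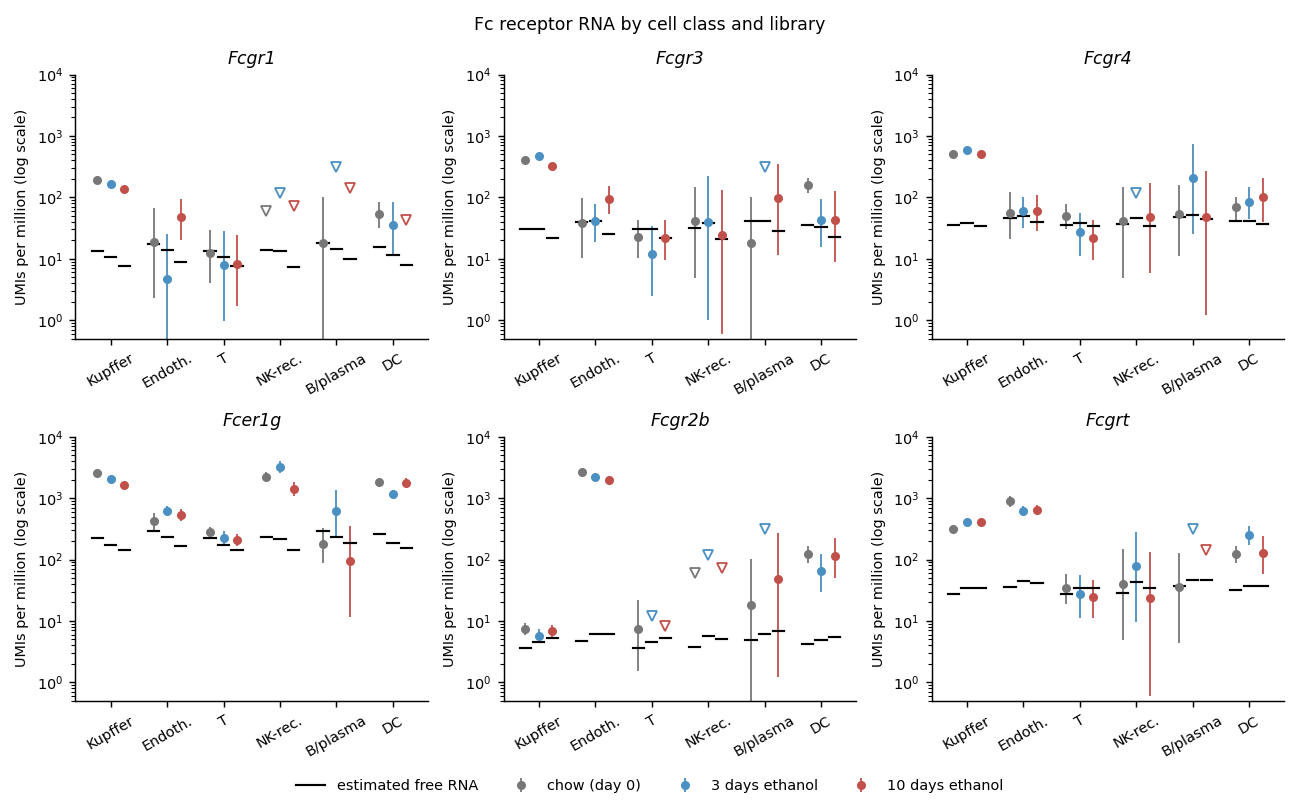
CPM (log axis) of the 6 genes in 6 cell classes, with chow, 3 days and 10 days of ethanol from left to right; bars are exact 95% counting intervals, open triangles the limit that a count of 0 allows (3 counts), and black dashes the estimated free RNA. For Kupffer-like cells the dashes use the free RNA share of T-like cells. Fcgr1, Fcgr3 and Fcgr4 stand far above free RNA in Kupffer-like cells, Fcgr2b in endothelial-like cells and DC-like cells, and Fcer1g in Kupffer-like, DC-like and NK-receptor cells.

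The 3 activating receptors were genes of the Kupffer-like cells in every library. In those cells of chow, 3-day and 10-day ethanol, Fcgr1 stood at 192, 162 and 135 CPM, Fcgr3 at 403, 478 and 328 CPM, and Fcgr4 at 504, 583 and 503 CPM. Relative to T-like cells, where these genes lay at 0.387 to 1.41 times the estimated free RNA, Kupffer-like cells held 15.4 to 20.7 times the level of Fcgr1, 15.1 to 40.6 times that of Fcgr3 and 10.1 to 23 times that of Fcgr4. Fcgr2b divided the classes the other way. Endothelial-like cells held 2703, 2240 and 1972 CPM of it, 366, 391 and 293 times the level of Kupffer-like cells. Fcgrt was shared by both, at 892, 627 and 651 CPM in endothelial-like and 319, 415 and 408 CPM in Kupffer-like cells. DC-like cells held 122, 248 and 128 CPM of Fcgrt and T-like cells 34.9, 27.5 and 24.5 CPM, the last at 0.7 to 1.28 times free RNA, and in each library the intervals of these 4 classes did not overlap. For Fcer1g the intervals of Kupffer-like and NK-receptor cells overlapped in chow and at 10 days, and both stood far above endothelial-like and T-like cells.

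In Kupffer-like cells the common gamma chain gene Fcer1g was lower in both ethanol libraries. It stood at 2574 CPM [2545–2604] in chow, at 2032 CPM [2007–2058] in 3-day ethanol and at 1631 CPM [1604–1658] in 10-day ethanol. The 10-day ethanol library is the lowest and chow the highest, and no pair of these intervals overlaps. The ratio of 3-day ethanol over chow was 0.789 [0.776–0.803], that of 10-day ethanol over chow 0.633 [0.621–0.646], and that of 10-day over 3-day ethanol 0.802 [0.786–0.819]. Mitochondrial and ribosomal RNA also differed between these libraries, with a median of 5.24%, 5.19% and 6.44% mitochondrial UMIs and 12.9%, 12.9% and 10.8% ribosomal protein UMIs in Kupffer-like cells, and their part in the ratios was not tested. Among all 7507 genes with a mean of at least 10 CPM, 1.57% had a lower ratio than Fcer1g in 10-day ethanol over chow and 7.5% in 3-day ethanol over chow.

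Fcgr1, the high-affinity IgG receptor, was lower in the same order. Its ratio was 0.846 [0.795–0.899] in 3-day ethanol over chow and 0.703 [0.655–0.756] in 10-day ethanol over chow, and 4.01% of genes had a lower ratio at 10 days. Fcgr3, the low-affinity receptor shared with many myeloid and NK cells, was highest at 3 days. Its ratio was 1.19 [1.14–1.23] in 3-day ethanol over chow, 0.816 [0.778–0.855] in 10-day ethanol over chow and 0.688 [0.657–0.719] in 10-day over 3-day ethanol, a ratio undercut by 2.41% of genes. Fcgr4, the receptor for IgG2 subclasses in the mouse, was also highest at 3 days, with a ratio of 1.16 [1.12–1.2] over chow. In 10-day ethanol it stood at the level of chow within counting error, with a ratio of 0.997 [0.959–1.04].

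Fcgrt was higher in both ethanol libraries. It stood at 415 CPM [403–427] in 3-day ethanol and 408 CPM [395–422] in 10-day ethanol, against 319 CPM [309–329] in chow. These are ratios of 1.3 and 1.28, above 89.5% and 84.6% of genes. The 2 ethanol libraries differed by less than counting error, with a ratio of 0.984 [0.942–1.03]. Fcgr2b was counted 85, 68 and 58 times in the Kupffer-like cells of chow, 3 days and 10 days, or 7.39, 5.73 and 6.73 CPM. The free RNA estimates, with the share of T-like cells, were 3.6, 4.53 and 5.27 CPM. At this depth no difference between diets was detectable, with ratios of 0.775 [0.555–1.08] at 3 days and 0.911 [0.641–1.29] at 10 days over chow. In chow the Fcgr2b level in Kupffer-like cells was 0.989 [0.327–4.89] times that in T-like cells, which had 3 UMIs of it. In T-like cells of 3-day and 10-day ethanol it had 0 UMIs, which allows up to 11.8 and 8.18 CPM (3 counts). Kupffer-like cells with an Fcgr2b UMI numbered 82, 67 and 56, of which 3, 1 and 2 held 2 UMIs. A UMI of 8 endothelial genes was found in 69.5%, 47.8% and 53.6% of them, and in 59.4%, 46.5% and 47.4% of Kupffer-like cells without Fcgr2b. These are shares of unthinned cells not matched for depth, and the part of depth in the differences was not tested.

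**Figure D2:**
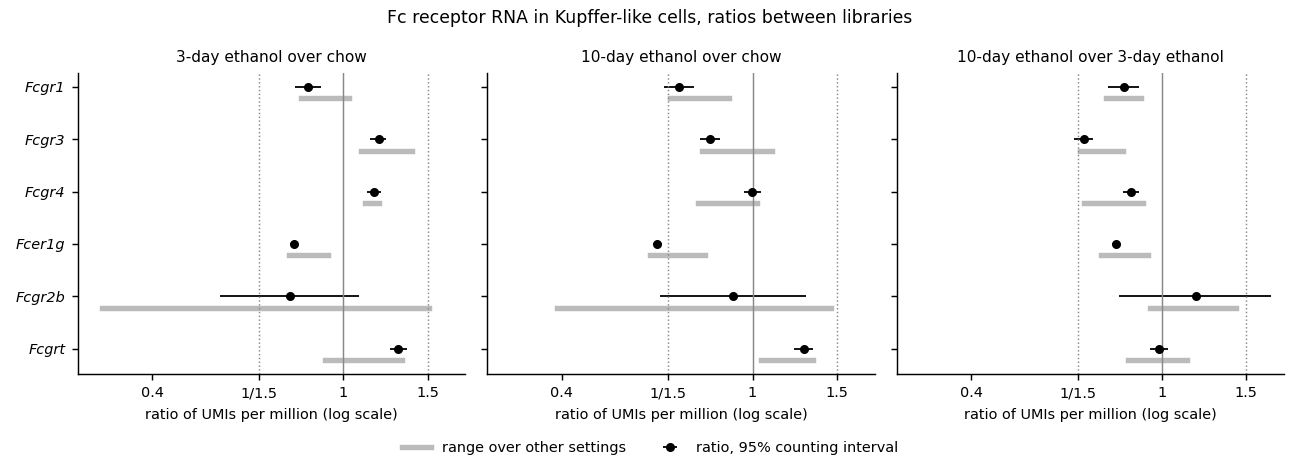
Ratio of CPM in Kupffer-like cells (log axis) for 3 comparisons of libraries; points are ratios with exact 95% counting intervals, grey bars the range over the other settings tried, and dotted lines 1.5-fold. Fcer1g at 10-day ethanol over chow is the 1 point past the dotted line.

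Of the 6 members, 0 were past 1.5-fold in 3-day ethanol over chow, 1 in 10-day ethanol over chow (Fcer1g) and 0 in 10-day over 3-day ethanol. Over all 7507 genes with at least 10 CPM the shares past 1.5-fold were 4.64%, 6.43% and 4.4%, with 3.36%, 4.01% and 2.42% higher and 1.28%, 2.42% and 1.97% lower by that factor. The count for the members is thus near the background. The median log2 ratio of the 5 members above 10 CPM was 0.21, -0.29 and -0.27, beside 0.04, 0.08 and 0.02 for all genes. With mitochondrial UMIs limited to 5%, which left 1045, 1612 and 352 Kupffer-like cells, the Fcer1g ratio at 10 days over chow was 0.729 and no longer past 1.5-fold. With each Kupffer-like cluster weighted equally it was 0.795.

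Fcer1g was below chow in 7 of 7 clusters at both times, by ratios of 0.799 to 0.948 at 3 days and 0.685 to 0.946 at 10 days. Its level differed more between clusters than between diets. It stood at 3097, 2719 and 2421 CPM in cluster 5, which held the deepest cells, and at 1466, 1205 and 1103 CPM in cluster 0, which held the shallowest. Fcgr1 was below chow in 7 of 7 clusters at both times, by ratios of 0.736 to 0.993 at 3 days and 0.566 to 0.962 at 10 days. In cluster 0 it was 109 CPM both in chow and at 3 days, so that the fall there was negligible. Fcgrt was above chow in 7 of 7 at both times, with ratios of 1.17 to 1.5 at 3 days and 1.1 to 1.37 at 10 days. Fcgr3 and Fcgr4 were above chow in 7 of 7 clusters at 3 days, by 1.16 to 1.42 and 1.12 to 1.42, and below 3-day ethanol in 7 of 7 at 10 days. At 10 days over chow they went both ways, with Fcgr3 above chow in 3 clusters and below in 4, and Fcgr4 above in 2 and below in 5. The cluster led by proliferation genes such as Top2a and Mki67 held less of each of the 5 members above 10 CPM than the whole class, in every library. Fcgr4 stood there at 236, 335 and 251 CPM, Fcgr3 at 246, 284 and 207 CPM, and Fcgr1 at 163, 120 and 96.1 CPM. Fcer1g stood at 1570, 1255 and 1075 CPM, and Fcgrt at 198, 254 and 222 CPM.

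The depth of a cell moved with Fcer1g. In chow its level was 1508 CPM in Kupffer-like cells of 1000 to 2000 UMIs, 1928 in those of 2000 to 4000, 2664 in those of 4000 to 8000 and 3169 in those of 8000 or more. Since ethanol libraries held shallower cells, the comparison was repeated within each of these depths. At 10 days over chow the Fcer1g ratio was 0.744, 0.76, 0.718 and 0.639 from the shallowest to the deepest cells, and at 3 days over chow 0.794, 0.905, 0.932 and 0.858. Fcer1g was thus below chow at every depth, by less than 1.5-fold at each but the last at 10 days. The deepest cells numbered 219 in chow and 20 and 22 in the ethanol libraries.

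The other members were compared in the same way. For Fcgr1 the 3-day difference was small within depths, with ratios of 1, 0.975, 0.919 and 1.03 over chow, against 0.846 over all cells. Its 10-day ratios stayed below 1 at each depth, the highest being 0.894. Fcgr4 hardly moved with depth in chow, at 558, 504, 495 and 528 CPM. Fcgr3 at 3 days over chow had ratios between 1.09 in the deepest cells and 1.39 in those of 2000 to 4000 UMIs. At 10 days over chow its ratios were 1.1 [0.858–1.42], 0.944, 0.847 and 0.79 from the shallowest to the deepest cells, against 0.816 over all cells, so that the direction turned in the shallowest. For Fcgrt the ratios of 3-day ethanol over chow were 1.29, 1.27, 1.32 and 0.919. The value below 1 rests on the few deepest cells. The Fcgrt ratios of 10-day ethanol over chow were 1.31, 1.34, 1.18 and 1.04.

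**Figure D3:**
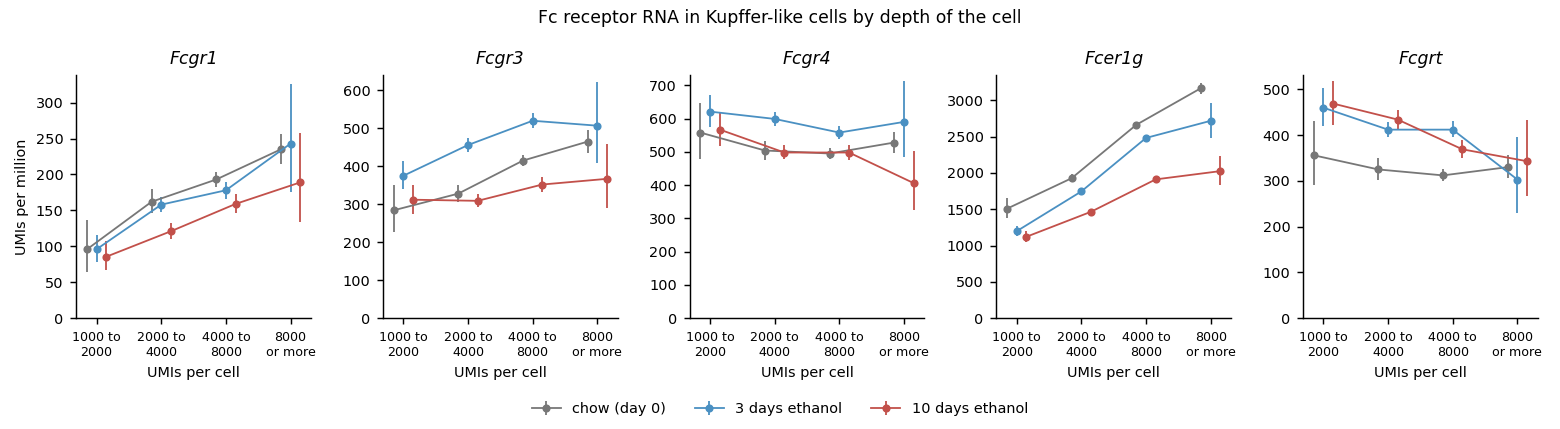
CPM of 5 members (linear axis from 0) in Kupffer-like cells by the UMI count of the cell, for chow, 3 days and 10 days of ethanol; bars are exact 95% counting intervals. Fcer1g is higher in deeper cells, from 1508 to 3169 CPM in chow, and the ethanol libraries lie below chow at each depth.

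The share of cells with a UMI was compared after each cell had been thinned to 1000 UMIs. Fcer1g was detected in 86.1%, 80.4% and 73.4% of Kupffer-like cells of the chow, 3-day and 10-day libraries (98.5%, 94.7% and 93.4% unthinned), against 24.8%, 15.2% and 17.8% of T-like cells, whose median depth before thinning was 3636, 2650 and 2454 UMIs. Fcgr4 was detected in 38.5%, 43.5% and 38.9%, Fcgr3 in 31.5%, 35.2% and 26.9%, Fcgr1 in 16%, 13.5% and 11.9%, and Fcgrt in 28%, 33% and 34% of Kupffer-like cells. The unthinned shares, which follow the depth, were 82.6%, 77.7% and 74% for Fcgr4, 75%, 70.6% and 59.4% for Fcgr3, 52.5%, 36.8% and 32.3% for Fcgr1 and 70.9%, 68.8% and 69.2% for Fcgrt. In T-like cells Fcgr1, Fcgr3 and Fcgrt were detected in at most 2.22% of thinned cells, and Fcgr4 in 7.92%, 1.27% and 1.48%. The thinned shares thus took the same order among diets as the levels for each of these 5 genes except Fcgrt, whose ethanol libraries swapped places within their intervals, and Fcgr4, whose chow and 10-day values lay within theirs. Fcgr2b was detected in 0.626%, 0.64% and 0.458% of Kupffer-like cells.

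At this thinned depth 65%, 67.8% and 60.5% of Kupffer-like cells had a UMI of at least 1 activating receptor. Cells with both an activating receptor and Fcer1g made up 56.6% [54.5–58.5] in chow, 55.1% [53.4–56.7] at 3 days and 43.7% [41.8–45.6] at 10 days. Cells with an activating receptor and no Fcer1g UMI made up 8.47%, 12.7% and 16.8%. These shares count detection in 1000 UMIs and not the presence of the RNA.

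**Figure D4:**
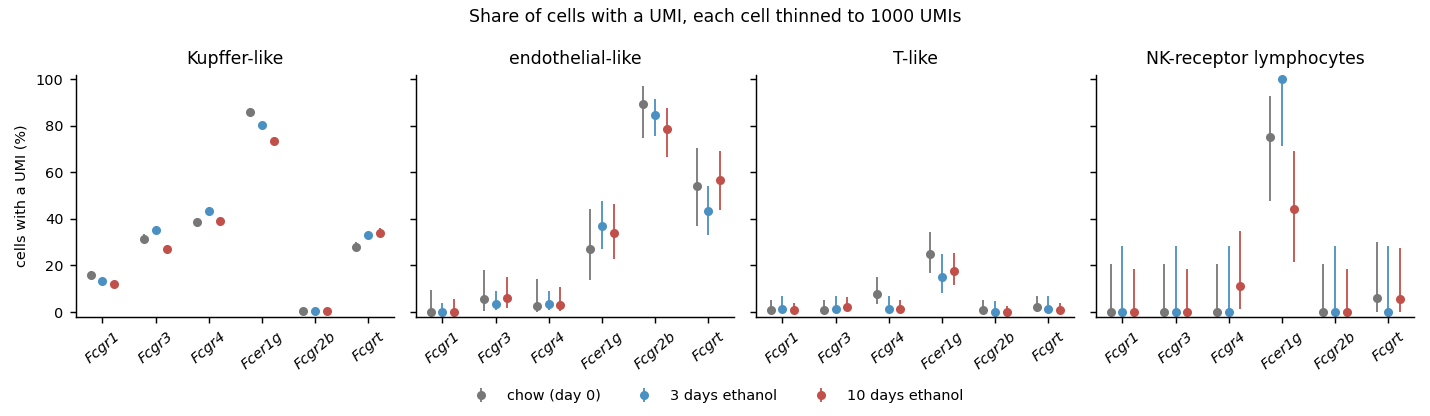
Percent of cells with at least 1 UMI of each member after thinning every cell to 1000 UMIs, in 4 cell classes and 3 libraries; bars are exact 95% binomial intervals. Fcer1g is detected in 86.1%, 80.4% and 73.4% of Kupffer-like cells, and Fcgr2b in 89.2%, 84.8% and 78.5% of endothelial-like cells.

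The balance of activating over inhibitory receptor RNA differed between the classes in every library. Counts at 3′ ends carry no length term, so the UMIs of Fcgr1, Fcgr3 and Fcgr4 were summed over those of Fcgr2b. In Kupffer-like cells 12634, 14511 and 8319 activating UMIs stood against 85, 68 and 58 of Fcgr2b, a ratio of 149 [120–186] in chow, 213 [168–275] at 3 days and 143 [111–189] at 10 days. These ratios rest on Fcgr2b levels that were 2.05, 1.26 and 1.28 times the free RNA estimate, which used the share of T-like cells. In endothelial-like cells the same ratio was 0.0417 [0.0213–0.0739], 0.0473 [0.0297–0.0718] and 0.102 [0.0695–0.146]. Put the other way, there were 24, 21.1 and 9.79 Fcgr2b UMIs for each activating one. The ratios of this class rest on 12, 23 and 34 activating UMIs. Those UMIs stood near free RNA in chow and at 3 days and came from few cells at 10 days. Within the activating UMIs of Kupffer-like cells Fcgr4 made up 45.9%, 47.7% and 52%, Fcgr3 36.7%, 39.1% and 34%, and Fcgr1 17.5%, 13.3% and 14%. Fcer1g gave 2.34 UMIs for each activating UMI in chow, 1.66 at 3 days and 1.69 at 10 days.

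Endothelial-like cells held the inhibitory receptor in nearly every cell. Fcgr2b was counted 288, 486 and 333 times in 37, 92 and 65 cells of chow, 3 days and 10 days, in 89.2%, 84.8% and 78.5% of thinned cells (100%, 92.4% and 89.2% unthinned). The ratio over chow was 0.829 [0.715–0.962] at 3 days and 0.73 [0.621–0.857] at 10 days, and that of 10 days over 3 days 0.88 [0.764–1.01]. Fcgrt had 95, 136 and 110 UMIs, with a ratio of 0.703 [0.537–0.924] in 3-day ethanol over chow and 0.731 [0.55–0.972] in 10-day ethanol over chow. Both genes were thus highest in chow, where the class had 37 cells. With mitochondrial UMIs limited to 5%, Fcgr2b stood at 2448 CPM at 3 days and 2442 CPM at 10 days, against 2578 CPM in chow. Of 3446 genes with a mean of at least 50 CPM in the class, 32.3% were past 1.5-fold in 3-day ethanol over chow, 33.6% in 10-day ethanol over chow and 27.6% in 10-day over 3-day ethanol. Neither Fcgr2b nor Fcgrt, Fcer1g or Fcgr4 was past it in any of these. Fcgr3 was past it at 10 days, by 2.52 [0.814–10.4] over chow and 2.28 [0.951–5.87] over 3 days. Both intervals include 1, and Fcgr3 reached that mean only through the 10-day library, so nothing is read from these ratios.

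The activating receptors in endothelial-like cells stood near free RNA in chow and at 3 days. Fcgr3 measured 37.5, 41.5 and 94.8 CPM from 4, 9 and 16 UMIs, beside free RNA estimates of 39.4, 40.4 and 24.9 CPM, and Fcgr4 56.3, 59.9 and 59.2 CPM beside 45.9, 49.9 and 40.2 CPM. Fcgr1 had 2, 1 and 8 UMIs. At 10 days Fcgr3 was 3.8 [2.17–6.17] and Fcgr1 5.35 [2.31–10.5] times the estimate, and their UMIs lay in 10.8% and 6.15% of the 65 cells. These levels rested on few cells. Fcgr3 was 26.6 CPM at 10 days when at least 2000 UMIs were required and 37.2 CPM with the top 4% of doublet scores removed, against 94.8 CPM in all cells, and Fcgr1 was 17.7 and 14.9 CPM, against 47.4 CPM. Fcer1g measured 422, 622 and 533 CPM, 1.47, 2.7 and 3.16 times the estimate, and the class also held Kupffer markers that summed to 5978, 5674 and 5153 CPM, against 40951, 41076 and 40177 CPM in Kupffer-like cells, with at most 1 of the 18 at 0. The part of this RNA in the Fcer1g level was not tested. The Fcer1g level moved with the choice of cells, to 871 CPM in chow when cells with over 1% of their UMIs from Kupffer-only genes were kept, and to 266 CPM at 10 days, against 440 CPM in chow, when at least 2000 UMIs were required. With mitochondrial UMIs limited to 5% it was 275 CPM in chow, from 23 cells, and 259 CPM at 10 days, from 21 cells. With free RNA subtracted it was 153 CPM in chow, 440 CPM at 3 days and 412 CPM at 10 days.

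Among lymphoid cells Fcer1g was the member that stood above free RNA, in the NK-receptor lymphocytes, where the gamma chain is known to pair with activating NK receptors. It had 108, 83 and 59 UMIs in 16, 11 and 18 cells, or 2191 CPM [1798–2646] in chow, 3270 CPM [2604–4054] at 3 days and 1410 CPM [1073–1818] at 10 days. These levels were 7.72, 14.4 and 6.71 times those of T-like cells and 0.851, 1.61 and 0.864 times those of Kupffer-like cells. The ratio was 1.49 [1.11–2.01] in 3-day ethanol over chow and 0.643 [0.46–0.891] in 10-day ethanol over chow. After thinning, the variance of the counts between cells was 2.4, 0.935 and 3.08 times their mean. In chow and at 10 days these intervals are thus too narrow for the spread between cells. The makeup of the class differed too, with a CD3 UMI in 12 of 16, 6 of 11 and 12 of 18 cells, and its part in the ratios was not tested. Over all libraries the 15 cells without a CD3 UMI held 2936 CPM, with a UMI of Fcer1g in 15 of 15, and the 30 cells with one held 1819 CPM. Among the cells without CD3 the levels were 3424, 2728 and 2741 CPM from 4, 5 and 6 cells, and among those with CD3 1880, 3763 and 872 CPM. With cells classed by marker genes alone, without clustering, the level was 1826 CPM at 3 days and 1434 CPM at 10 days, against 1668 CPM in chow. With mitochondrial UMIs limited to 5% it was 2471 CPM at 3 days and 1208 CPM at 10 days, against 2494 CPM in chow. The 3-day difference thus turned direction under that limit. When at least 2000 UMIs were required, the 10-day level was 946 CPM, against 1935 CPM in chow. The 10-day level stayed below chow in each of these, by differing amounts.

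Fcgr3, through which NK cells are known to kill antibody-coated targets, gave 2, 1 and 1 UMIs in the NK-receptor lymphocytes. These were 1.29 [0.156–4.66], 1.04 [0.0263–5.78] and 1.14 [0.0289–6.36] times the free RNA estimate. So few counts cannot tell free RNA from a level several times as high. Fcgr1 and Fcgr2b had 0 UMIs in all 3 libraries there, which allows up to 60.9, 118 and 71.7 CPM (3 counts). In T-like cells Fcer1g stood at 284, 228 and 210 CPM, 1.29, 1.31 and 1.45 times free RNA. Without clustering, by marker genes alone, it was 113 CPM at 3 days and 98.6 CPM at 10 days, against 241 CPM in chow. These ethanol values came from 24 and 35 cells, and the difference from chow was larger than in the whole class. In the whole class, ratios over chow were 0.802 [0.574–1.11] at 3 days and 0.739 [0.546–0.996] at 10 days. The ratio of 10-day over 3-day ethanol was 0.922. With free RNA subtracted the levels were 69.8 CPM in chow, 59.1 CPM at 3 days and 71.9 CPM at 10 days, so that the 10-day library was no longer below chow. The 3-day level lay above chow when at least 2000 UMIs were required, at 270 against 216 CPM, and with mitochondrial UMIs limited to 5%, at 268 against 231 CPM. None of these ratios of the whole class was past 1.5-fold, against 16.8%, 19.9% and 21.6% of 2440 genes. T-like cells with a CD3 UMI, 100, 76 and 132 of them, held 287 [237–345], 173 [125–234] and 143 [106–188] CPM of Fcer1g. The free RNA estimates for the class were 220, 173 and 145 CPM. At 3 and 10 days 3 cells each had no CD3 UMI, and they held 16 and 26 of the 58 and 77 Fcer1g UMIs. Ncr1 was found in 3 and 2 of them. Their part in the ratios was not tested. In B and plasma-like cells, where Fcgr2b is known as the inhibitor of B cell activation, it had 1, 0 and 1 UMIs in 13, 6 and 12 cells. Fcer1g had 10, 6 and 2 UMIs there.

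The pathway around the receptors was described in Kupffer-like cells from 7 lists. Of 30 genes that carry the signal of activating Fc receptors, 26 were measured. Past 1.5-fold at 3 days over chow were 0 higher and 1 lower, against 3.36% of all genes higher and 1.28% lower. The lower one was Rac2, a GTPase of phagocytes, at 214 CPM at 3 days against 328 in chow (ratio 0.652 [0.62–0.686]). In 10-day ethanol over chow 2 were higher and 0 lower, against 4.01% of all genes higher and 2.42% lower. They were Fyn, a Src family kinase, at 72 CPM at 10 days against 38.9 in chow (1.85 [1.64–2.1]), and Prkcd, a protein kinase C, at 367 against 234 CPM (1.57 [1.49–1.65]). Above 1 were 18 of 26 at 3 days and 22 of 26 at 10 days, with median log2 ratios of 0.12 and 0.24 beside 0.04 and 0.08 for all genes. Syk, the kinase recruited by the gamma chain, stood at 157 CPM in chow, 185 in 3-day and 227 in 10-day ethanol.

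Measured genes on a list of receptors and adaptors of the ITAM family lay mostly below chow at 10 days and not at 3 days. Not every gene on it carries or uses an ITAM motif, Hcst being one that does not. Of 18 genes on this list, 16 were in the files and 7 were measured (Clec7a and Gp49a were not analysed here). In 10-day ethanol over chow 0 were past 1.5-fold higher and 1 lower, against 4.01% of all genes higher and 2.42% lower. Of the 7 genes 2 lay above 1 and 5 below, with a median of -0.45 on the log2 scale, beside 0.08 for all genes. In 3-day ethanol over chow the list counted 0 past 1.5-fold, 5 above 1 and 2 below, and a median of 0.05. The lower gene was Tyrobp, which encodes DAP12, the adaptor most like the gamma chain in its role. It stood at 3512, 2801 and 2163 CPM, with ratios of 0.798 [0.786–0.809] at 3 days and 0.616 [0.605–0.627] at 10 days over chow.

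Of 19 inhibitory signalling genes all were measured. Beside the counts below, 3.36% of all genes were past 1.5-fold higher and 1.28% lower at 3 days over chow. At 10 days over chow these shares were 4.01% and 2.42%. At 3 days over chow 1 was past 1.5-fold higher and 0 lower, namely Pirb, an inhibitory receptor of myeloid cells, at 338 CPM at 3 days against 210 in chow (1.61 [1.53–1.69]). The 10-day library had 1 higher than chow, Ceacam1, at 16.5 CPM at 10 days against 6.43 in chow (2.56 [1.92–3.44]), and 1 lower, Cd22, at 13.1 against 21.8 CPM (0.601 [0.477–0.754]). The log2 ratios of this list had medians of 0.02 and 0.14 in the 2 comparisons with chow, beside 0.04 and 0.08 for all genes. Among 21 measured actin and phagosome genes 0 were past 1.5-fold in either comparison, with medians of -0.03 and 0.07. Of 18 measured interferon gamma response genes, the pathway known to raise Fcgr1, 0 were higher and 3 lower at 3 days over chow (Cxcl9, Gbp2 and Ciita), and 0 higher and 7 lower at 10 days. Below 1 were 16 of 18 at 3 days and 14 of 18 at 10 days, with median log2 ratios of -0.30 and -0.35 beside those of all genes above. Gbp2, an interferon-induced GTPase, stood at 28.6 CPM at 3 days and 33.1 CPM at 10 days, against 56.9 CPM in chow. Ciita, the regulator of MHC class II genes, stood at 8.17 and 8.59 CPM, against 14.6 CPM in chow. Cxcl9, a chemokine, stood at 20.2 CPM at 3 days and 39.5 CPM at 10 days, against 41.3 CPM in chow. Iigp1, another induced GTPase, stood at 61.5 CPM at 3 days and 54.1 CPM at 10 days, against 91.7 CPM in chow.

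Among other Fc-binding receptors and FcRn partners 5 of 13 were measured, 0 were past 1.5-fold at 3 days over chow, and 1 was lower at 10 days. Of all genes 1.28% were lower by that factor at 3 days and 2.42% at 10 days. The lower gene of the list was Alb, the other cargo of FcRn and a hepatocyte RNA, at 71.1 CPM at 10 days against 127 CPM in chow. B2m, the partner chain of FcRn, had ratios of 0.769 at 3 days and 0.687 at 10 days over chow, on the other side of 1 from Fcgrt. Of 11 antibody genes, 2 were measured, and both were lower in both ethanol libraries. Igkc stood at 5.9 CPM at 3 days and 7.78 CPM at 10 days, against 91.7 CPM in chow, and Igha had 0 UMIs in both ethanol libraries against 31 CPM in chow. Antibody RNA is known from B and plasma cells. The low-UMI barcodes held 48 and 83.1 CPM of Igkc at 3 and 10 days against 732 CPM in chow, and 1.71 and 1.72 CPM of Igha against 285 CPM. The part of free RNA in these values was not tested.

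The genes whose levels were most like those of a member were named from 19 profiles (cell class by library) over 2713 genes, by Pearson's r of log levels. These profiles share libraries, depth and free RNA, and r is a description. Closest to Fcer1g was Tyrobp (0.93), closest to Fcgr1 Tnfaip2 (0.89), closest to Fcgr3 Wfdc17 (0.87), and closest to Fcgr4 Sgpl1 (0.99) and Ano6 (0.97). Closest to Fcgr2b were Adam23, Dnase1l3 and Dpp4 (0.93 each), of which Dnase1l3 was an endothelial marker, and closest to Fcgrt Laptm4a (0.93) and Scarb1 (0.91). Between members r was 0.81 for Fcgr4 with Fcgr1, 0.68 for Fcgr3 with Fcgr1, 0.64 for Fcgrt with Fcgr2b and -0.04 for Fcgr2b with Fcer1g.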

How the data were processed

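The authors deposited unfiltered UMI counts for every gene and barcode, as integers per the file headers. Per the submitters' processing notes, Cell Ranger 2.2.0 was used with GRCm38 (mm10). Which gene annotation it used was not given in the sources used here. Coordinates came from GENCODE vM21, which held 28339 of 28692 gene IDs.

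Kept cells were clustered together without the 6 members (scanpy 1.11.5, igraph 0.11.9, 2000 variable genes, 30 components, 15 neighbours, Leiden resolution 0.6), with no batch correction. Clusters were named when at least 3 listed markers of 1 type were among 25 leading genes. A cluster led by proliferation genes was kept as Kupffer-like for its Kupffer gene level, and T and NK-receptor cells were split by a further clustering. Outside the Kupffer-like class, cells with over 1% of UMIs from 6 Kupffer-only genes were set aside (39, 58 and 48 cells in chow, at 3 days and at 10 days). Clusters that mixed types were left unnamed. Scrublet's threshold marked 0.0361%, 0% and 0.0332% of cells and so had not worked, and doublets were removed only as an alternative. These naming rules, the 1% limit and the depth ranges were chosen after seeing the data.

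Counts were summed per class and library and scaled to CPM, with exact Poisson intervals, exact conditional binomial intervals for ratios and Clopper-Pearson intervals for shares (scipy 1.17.1). The ratio script was tested on simulated data. A gene was measured at a mean of at least 10 CPM in Kupffer-like cells and 50 CPM in other classes. Named list genes were at most 4 per list, the largest ratios past 1.5-fold over chow. B2m and Syk were added for their roles. The members and lists were chosen with earlier results of these data known. The result of a further promoter motif search is not reported here.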

Additional observations from a re-analysis of the deposited data

Results flagged for a closer look

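Of the ratios over chow of a member with at least 20 UMIs in each library compared, a minimum chosen after seeing the data, and leaving out DC-like cells, 7 had intervals on one side of 1 while another class lay on the other. None of these differences between classes was tested, since each library is 1 mouse. Fcer1g at 3 days over chow was 0.789 in Kupffer-like cells, 1.47 in endothelial-like cells and 1.49 in NK-receptor lymphocytes. The endothelial-like value rests on 135 UMIs at 3 days and 45 in chow, and it moved with the choice of cells. Fcer1g stood there at 868 CPM at 3 days against 871 CPM in chow with cells rich in Kupffer RNA kept, at 507 against 422 CPM with the top 4% of doublet scores removed, at 739 against 275 CPM with mitochondrial UMIs limited to 5%, and at 440 against 153 CPM with free RNA subtracted. In NK-receptor lymphocytes it stood at 2471 CPM at 3 days against 2494 CPM in chow with that mitochondrial limit. Fcgrt at 3 days over chow was 1.3 in Kupffer-like cells and 0.703 in endothelial-like cells. Fcgrt at 10 days over chow was 1.28 in Kupffer-like cells and 0.731 in endothelial-like cells. The endothelial-like chow class had 37 cells.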

How the results depend on the processing

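No paired analysis was possible because each diet had 1 library. The number of members past 1.5-fold in Kupffer-like cells at 3 days over chow was 0. It was 1 with mitochondrial UMIs limited to 5%, with free RNA subtracted and in cells of 1000 to 2000 and of 4000 to 8000 UMIs, each time Fcgr2b, which lay below 10 CPM, and 3 at the lower fold limit tried (Fcer1g, Fcgr2b and Fcgrt). At 10 days over chow it was 1. It was 0 with mitochondrial UMIs limited to 5%, with clusters weighted equally, in cells of 1000 to 2000, 2000 to 4000 and 4000 to 8000 UMIs and at a fold of 2. It was 2, with Fcgr2b added, with free RNA subtracted and in cells of 8000 UMIs or more, and 3 at the lower fold limit tried (Fcgr1, Fcer1g and Fcgrt). At 10 days over 3 days it was 0, and 1 in cells of 8000 UMIs or more (Fcgr2b) and at the lower fold limit tried (Fcgr3). The cause of these moves was not tested. The Fcer1g ratio at 10 days over chow lay between 0.61 and 0.795, below 1 under 14 of 14 alternatives. Fcgr1 at 3 days over chow ranged from 0.817 to 1.03, Fcgr4 at 10 days from 0.769 to 1.02 and Fcgrt at 3 days from 0.919 to 1.33. Median-of-ratios scaling moved log2 ratios by -0.03, -0.05 and -0.02. Counting depth limits Fcgr2b in Kupffer-like cells and each member but Fcer1g in lymphoid cells.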

Other observations

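DC-like cells, 41 in chow, 21 at 3 days and 15 at 10 days, held both kinds of IgG receptor RNA. Fcgr2b stood at 122, 63.8 and 114 CPM, 16.5, 11.1 and 16.9 times the level of Kupffer-like cells, from 41, 9 and 8 UMIs. Fcgr2b gave 0.436, 0.391 and 0.8 UMIs for each activating UMI, between the ratios of Kupffer-like and endothelial-like cells in each library. The activating UMIs numbered only 94, 23 and 10, and the part of free RNA in these ratios was not tested. Fcgr3 stood at 42.5 CPM at 3 days and 42.7 CPM at 10 days, from 6 and 3 UMIs, against 157 CPM in chow, from 53 UMIs. The ethanol levels were 1.29 [0.473–2.81] and 1.88 [0.388–5.5] times the free RNA estimate, and the chow level 4.44 [3.33–5.81] times. The levels of Fcer1g were 1811, 1183 and 1749 CPM. Of 174 cells in the cluster, 97 were set aside for their Kupffer RNA, or 37.9% in chow, 63.8% at 3 days and 70% at 10 days. The values describe the rest, and the part of this unequal removal in the differences between libraries was not tested.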
